A study of Homo sapiens with 14 samples.

Results

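The HOX genes were described gene by gene in MDA-MB-231, an established human triple-negative breast cancer (TNBC) line, after loss of SAP30, of SIN3A with SIN3B, or of MLL1. Members were taken from a list of 38 HOX genes of the HOXA, HOXB, HOXC and HOXD clusters, by an exact match of the gene name. No measured value entered the match, but the list was chosen with earlier results of these data known. Of the 38 genes, 24 had a row among the 19410 genes of the expression table, 3 in HOXA, 8 in HOXB, 7 in HOXC and 6 in HOXD. The other 14 (HOXA2, HOXA3, HOXA4, HOXA5, HOXA6, HOXA9, HOXA10, HOXB1, HOXB13, HOXC11, HOXC12, HOXD8, HOXD9 and HOXD13) were not analysed here. RNA-seq was made from 14 libraries, 2 for each of 7 conditions: unedited parental cells, SAP30-KO1 and SAP30-KO2, SIN3A+SIN3B-DKO1 and SIN3A+SIN3B-DKO2 (both genes targeted together), and MLL1-KO1 and MLL1-KO2. All edited lines were made with CRISPR/Cas9 and puromycin selection, and each was a mixture of several knockout clones that had been picked and expanded. Parental cells had not been through editing or selection, so the effects of these steps and of the targeted gene cannot be told apart against parental. No library was given a drug or other stimulus, and all cells grew in the same serum-containing medium. The labels do not say whether the 2 libraries of a condition came from separate cultures, and every p-value measures only the spread between those libraries.

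HOX genes encode homeodomain transcription factors that give cells their position along the body axis, and in each cluster the genes stand in the order in which they are used from head to tail. MLL1 (KMT2A, named MLL in the table) is a histone methyltransferase that marks H3K4 and is the textbook keeper of HOX transcription. SIN3A and SIN3B are the scaffolds of a histone deacetylase corepressor, and SAP30 is a subunit of it. The libraries show which HOX genes differed in level in TNBC lines in which these regulators were targeted.

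The libraries held between 18415036 and 23162682 reads assigned to genes, with a median of 21648530. SAP30, MLL and SIN3B RNA was lower in the lines in which each was targeted, and SIN3A RNA was not. SAP30 fell from 78.9 and 82.8 TPM (transcript level scaled to gene length and library size) in parental cells to at most 4.96 TPM in the SAP30-KO libraries, and MLL fell from 56.7 and 49.0 TPM to between 15.8 and 27.7 TPM in the MLL1-KO libraries. SIN3B was at 43.5 to 50.2 TPM in the libraries labelled SIN3A+SIN3B-DKO against 75.1 and 77.4 TPM in parental. SIN3A was at 55.1 to 62.5 TPM there, above 43.1 and 45.4 TPM in parental. RNA level alone does not test whether the protein was lost. The paper reports removal of both proteins in its double-knockout MDA-MB-231 cells, checked by immunoblot. Of the mesenchymal markers of this line, VIM, CD44, EGFR, AXL, CAV1 and MSN were high in every library, and ESR1 and PGR stayed at or below 0.191 TPM. EGFR and CAV1 were below both parental libraries in all 12 edited libraries, and VIM and MSN were above both in all 12. Of 7 luminal or epithelial markers, 5 were tested, and 3 or 4 of them fell in every edited line. Without CDH1, which passed the filter only through the parental libraries, 2 or 3 fell. Over all tested genes 7.56% to 16.3% were lower in these lines. The summed level of all 7 was 508 and 517 TPM in parental and 151 to 295 TPM in the edited libraries. KRT19 made up most of it in parental, at 432 and 444 TPM. GATA3 was above both parental libraries in 6 of the 12 edited libraries and below both in 2. Whether these marker changes had a part in the HOX results was not tested.

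The HOX genes made up a small part of the RNA, and 3 of them carried most of it. In parental cells HOXB9 stood first at 18.9 ± 0.607 TPM (SD, n = 2), followed by HOXD4 at 11.9 ± 0.932 TPM and HOXD1 at 6.99 ± 0.173 TPM. HOXC6 (4.53 ± 0.272 TPM), HOXD3 (2.76 ± 0.138 TPM), HOXC5 (2.53 ± 0.139 TPM) and HOXC8 (2.16 ± 0.214 TPM) came next, and of these neighbours only HOXD3 and HOXC5 overlapped in mean ± SD. HOXB3 (1.27 ± 0.106 TPM), HOXA13 (0.841 ± 0.0156 TPM), HOXB8 (0.808 ± 0.368 TPM) and HOXC9 (0.684 ± 0.181 TPM) were near or below 1 TPM, and the last 3 of them overlapped. These 11 genes reached 1 TPM in at least 2 of the 14 libraries and were tested. HOXA13 did so only through the SAP30-KO libraries. HOXB3 did so only through the parental libraries, the group in which it was highest, and counts of calls against parental that contain it are given with and without it. The remaining 13 genes in the table were too low to be tested in the same way, and HOXA11 had no read in any library.

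**Figure D1:**
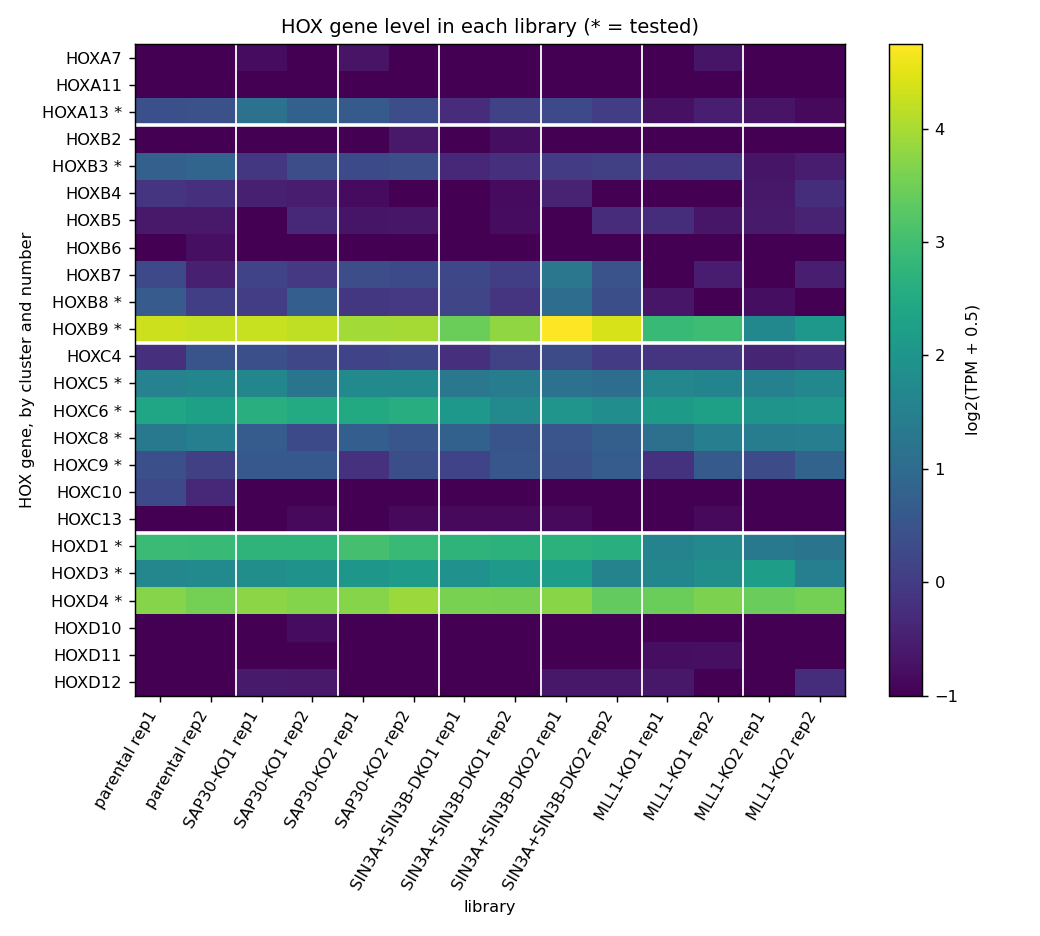
Level of the 24 HOX genes in each of the 14 libraries, as log2(TPM + 0.5), with genes in rows by cluster and libraries in columns by condition. HOXB9, HOXD4 and HOXD1 are the brightest rows, and HOXB9 and HOXD1 darken in the 4 MLL1-KO libraries while HOXD4 does not.

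In the MLL1-KO lines 5 HOX genes were lower in both lines and none was called higher; at an unadjusted p below 0.05, 0 of the 11 were higher by limma, and voom also called 0. A gene was called when its adjusted p was below 0.05 (limma, Benjamini-Hochberg over 13540 genes) and its change was at least 1.5-fold, both on log2(TPM + 0.5). HOXA13, HOXB3, HOXB8, HOXB9 and HOXD1 were called lower in MLL1-KO1, 5 of the 11 tested, where 16.3% of all tested genes were lower and 6.89% were higher. The same genes were called lower in MLL1-KO2, where 14.9% of all tested genes were lower and 10.2% higher. Without HOXB3 the count was 4 in each line. The median log2 change of the 11 genes was -0.13 in MLL1-KO1 beside -0.09 over all genes, and -0.35 in MLL1-KO2 beside -0.04. HOXC5, HOXC6, HOXC8, HOXC9, HOXD3 and HOXD4 were called in neither line. By cluster, the called genes were the tested HOXA gene, the 3 tested HOXB genes and 1 of the 3 tested HOXD genes, and none of the 4 tested HOXC genes.

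HOXB9, a posterior HOXB gene known for driving invasion when it is high in breast cancer, showed the largest decrease of the 11 tested genes on log2(TPM + 0.5), a scale that compresses low genes; in depth-scaled reads it fell 2.69-fold and 5.90-fold, less than HOXA13, HOXB8 and HOXB3. Its level was 19.4 and 18.5 TPM in parental cells, 6.86 and 7.24 TPM in MLL1-KO1, and 2.73 and 3.66 TPM in MLL1-KO2. All 4 MLL1-KO libraries lay below every other library, and the 2 MLL1-KO lines did not overlap each other. The log2 change was -1.36 ± 0.143 (SE, adjusted p = 1e-05 by limma) in MLL1-KO1 and -2.41 ± 0.143 (adjusted p = 9.3e-08) in MLL1-KO2. HOXB9 was also lower in MLL1-KO2 than in MLL1-KO1, by -1.04 ± 0.143 on the log2 scale (adjusted p = 0.00019 by limma). MLL RNA itself stood the other way in these lines, at 17.4 and 15.8 TPM in MLL1-KO1 and 25.7 and 27.7 TPM in MLL1-KO2.

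HOXD1, the most anterior HOXD gene, held 7.11 and 6.87 TPM in parental cells, 2.48 and 2.77 TPM in MLL1-KO1, and 2.02 and 1.83 TPM in MLL1-KO2. In depth-scaled reads HOXD1 fell 2.66-fold in MLL1-KO1 and 3.64-fold in MLL1-KO2. The log2 change was -1.26 ± 0.0951 (adjusted p = 7.1e-07 by limma) in MLL1-KO1 and -1.63 ± 0.0951 (adjusted p = 8e-08) in MLL1-KO2. In the 8 SAP30-KO and SIN3A+SIN3B-DKO libraries HOXD1 lay between 5.71 and 7.82 TPM, above all 4 MLL1-KO libraries. HOXD4, a hindbrain-patterning gene in the same cluster, held 12.6 and 11.2 TPM in parental cells, 10.4 and 11.8 TPM in MLL1-KO1, and 10.2 and 11.2 TPM in MLL1-KO2. MLL1-KO1 overlapped parental, and both MLL1-KO2 libraries lay just below it. The 95% confidence interval of the HOXD4 log2 change ran from -0.35 to 0.17 in MLL1-KO1 and from -0.40 to 0.12 in MLL1-KO2, which leaves out the 1.5-fold decrease. HOXD3, which spans HOXD4 in the annotation, gave log2 changes of 0.04 ± 0.239 and 0.15 ± 0.239.

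The non-coding RNA next to HOXD1 fell with it. HOXD-AS1 (HAGLR), which is transcribed in the opposite direction to HOXD1, was the most abundant transcript measured in the HOXD cluster at 25.3 and 26.0 TPM in parental cells. It was at 6.87 and 7.003 TPM in MLL1-KO1 and at 6.71 and 7.72 TPM in MLL1-KO2, against 18.6 to 23.5 TPM in the other 8 edited libraries. The log2 change was -1.81 ± 0.0671 (adjusted p = 2.9e-09 by limma) in MLL1-KO1 and -1.76 ± 0.0671 (adjusted p = 2.8e-09) in MLL1-KO2, and it was called in no SAP30-KO or SIN3A+SIN3B-DKO line. In the annotation used for positions, HOXD-AS1 reaches to chr2:177053686 and HOXD1 starts at chr2:177053396, so the 2 overlap on opposite strands. The strand setting of the counting is not given in the sources used here, so reads over this shared stretch cannot be told apart.

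**Figure D2:**
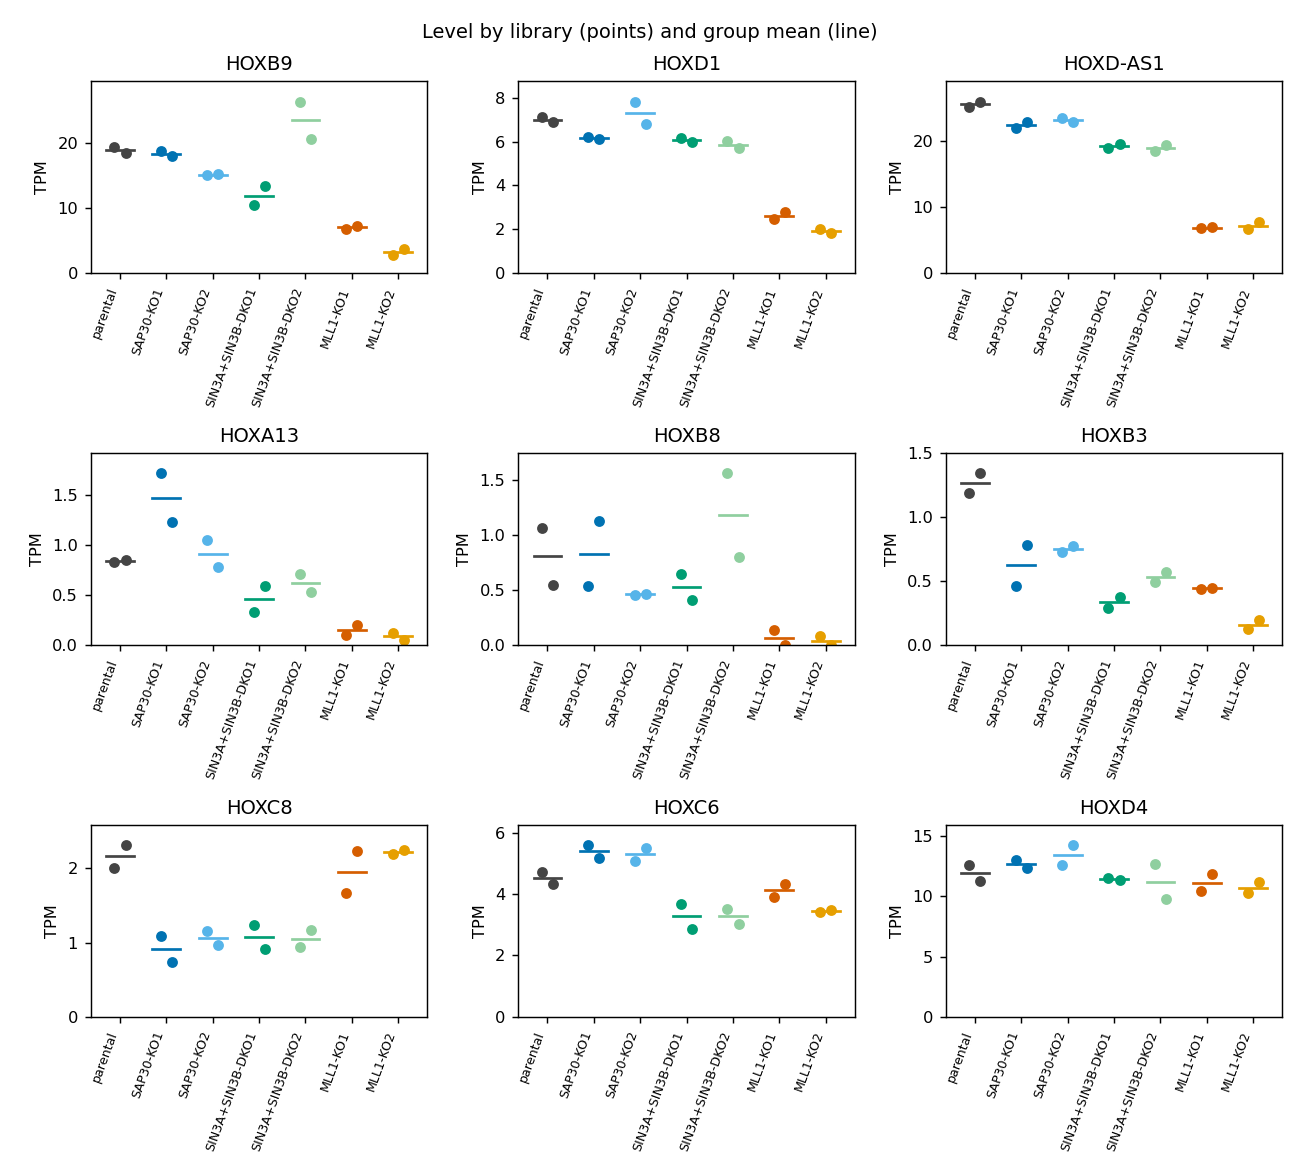
Level in TPM of 8 HOX genes and HOXD-AS1 in each library (points, 2 per condition) with the condition mean (line), on axes that start at 0. HOXB9, HOXD1, HOXD-AS1, HOXA13 and HOXB8 are lowest in MLL1-KO1 and MLL1-KO2, HOXC8 is lowest in the SAP30-KO and SIN3A+SIN3B-DKO lines, and HOXD4 lies between 9.73 and 14.2 TPM in all libraries.

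Promoter sequences are shown for 3 tested HOX genes because the MLL1-KO data separate them: HOXD1 and HOXA13 fell in both lines and HOXD4 was called in neither. Of the 11 tested genes, 5 had a window in the RefSeq promoter table (GRCh38.p14). From each window the 250 bases before the transcription start were taken and were matched exactly once to GRCh37, the same assembly as the hg19 build named for these files. Capitals mark each CG dinucleotide. The HOXD1 stretch is chr2:177053146-177053395 on the plus strand, the HOXA13 stretch is chr7:27239711-27239960 on the minus strand, and the HOXD4 stretch is chr2:177016028-177016277 on the plus strand. All are written 5′ to 3′ in the direction of the gene.
HOXD1: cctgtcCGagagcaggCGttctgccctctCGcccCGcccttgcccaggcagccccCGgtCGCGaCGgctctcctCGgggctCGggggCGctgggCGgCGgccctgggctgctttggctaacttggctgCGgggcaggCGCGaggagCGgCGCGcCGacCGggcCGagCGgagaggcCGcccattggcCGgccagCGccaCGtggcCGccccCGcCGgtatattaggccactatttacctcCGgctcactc
HOXA13: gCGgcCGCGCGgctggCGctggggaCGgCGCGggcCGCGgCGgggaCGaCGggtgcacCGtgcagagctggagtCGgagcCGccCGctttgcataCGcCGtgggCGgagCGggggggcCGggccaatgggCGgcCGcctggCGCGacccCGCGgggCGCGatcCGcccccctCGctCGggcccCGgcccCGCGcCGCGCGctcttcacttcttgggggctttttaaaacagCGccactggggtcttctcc
HOXD4: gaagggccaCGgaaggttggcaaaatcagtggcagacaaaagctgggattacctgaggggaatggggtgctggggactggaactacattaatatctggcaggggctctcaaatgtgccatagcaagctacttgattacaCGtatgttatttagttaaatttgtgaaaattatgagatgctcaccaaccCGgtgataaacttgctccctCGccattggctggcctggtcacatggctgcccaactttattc
HOXD1 held 31 CG and HOXA13 held 40 CG in these 250 bases, where the median of all 35114 stretches of this length was 11 CG, and at least as many were found in 10.9% and 2.16% of them. HOXD4 held 4 CG, HOXD3 held 21, and HOXC5, whose start is shared with HOXC4 in the table, held 14. The motif TATAAA was in none of the 5 on either strand and in 10.7% of all, and CCAAT was in all 5 and in 32.0% of all. The nearest of 4 RefSeq starts of HOXD-AS1 lay 96 bases upstream of the HOXD1 start on the opposite strand, so that the HOXD-AS1 start lies within the HOXD1 stretch printed above. With 5 genes these are descriptions of the sequence and no test of it. HOXB3, HOXB8, HOXB9, HOXC6, HOXC8 and HOXC9 had no window in the table used.

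HOXA13, the most posterior HOXA gene, was the only HOXA member with enough reads to test. It was at 0.830 and 0.852 TPM in parental cells, at 0.0976 and 0.198 TPM in MLL1-KO1, and at 0.118 and 0.0554 TPM in MLL1-KO2. These levels rest on 30 reads in the parental pair, 6 in MLL1-KO1 and 3 in MLL1-KO2. The ratio of depth-scaled reads was 5.70 with a counting interval (95%) of 2.33 to 16.8 in MLL1-KO1, and 9.83 with an interval of 3.06 to 50.3 in MLL1-KO2. On log2(TPM + 0.5), which compresses changes of low genes, the decreases were -1.05 ± 0.215 (adjusted p = 0.0014 by limma) and -1.20 ± 0.215 (adjusted p = 0.00055).

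HOXB8, beside HOXB9, had 21 reads in the parental pair against 2 in the MLL1-KO1 pair and 1 in the MLL1-KO2 pair, and 1 library of each MLL1-KO line had no read. Its parental level was uneven, at 1.07 and 0.548 TPM, and the log2 change was -1.19 ± 0.309 (adjusted p = 0.0065 by limma) in MLL1-KO1 and -1.25 ± 0.309 (adjusted p = 0.0044) in MLL1-KO2. Without parental replicate 1 the change of HOXB8 in MLL1-KO1 was -0.90, with an adjusted p of 0.061, and the call was lost. HOXB3, a gene of hindbrain patterning, was at 1.19 and 1.34 TPM in parental cells, at 0.441 and 0.447 TPM in MLL1-KO1, and at 0.122 and 0.192 TPM in MLL1-KO2. Its log2 change was -0.90 ± 0.188 (adjusted p = 0.0016 by limma) and -1.43 ± 0.188 (adjusted p = 5.5e-05). HOXB3 passed the filter only through the parental libraries, which favours a decrease. Quantile normalization, which moved the median log2 change of all genes in MLL1-KO1 from -0.09 to 0.04, ended the calls of HOXA13, HOXB3 and HOXB8 there (log2 change -0.55, -0.45 and -0.87, adjusted p = 0.056, 0.061 and 0.056 by limma) and left those of HOXB9 and HOXD1.

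Other genes around the HOXB cluster were lower in the MLL1-KO lines as well. The running median log2 change over 51 tested genes in chromosome order at HOXB3, HOXB8 and HOXB9 came to -0.55 in MLL1-KO1 and to -0.43 in MLL1-KO2, beside -0.09 and -0.04 over all tested genes. With that local median subtracted, HOXB3 in MLL1-KO1 changed by -0.35 (adjusted p = 0.15 by limma) and HOXB8 by -0.64 (adjusted p = 0.091), and neither was called, whereas HOXB9 was called in both lines. The local median was -0.14 and -0.13 at HOXD1 and -0.20 and -0.13 at HOXA13. What this local shift has to do with the HOXB results was not tested.

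**Figure D3:**
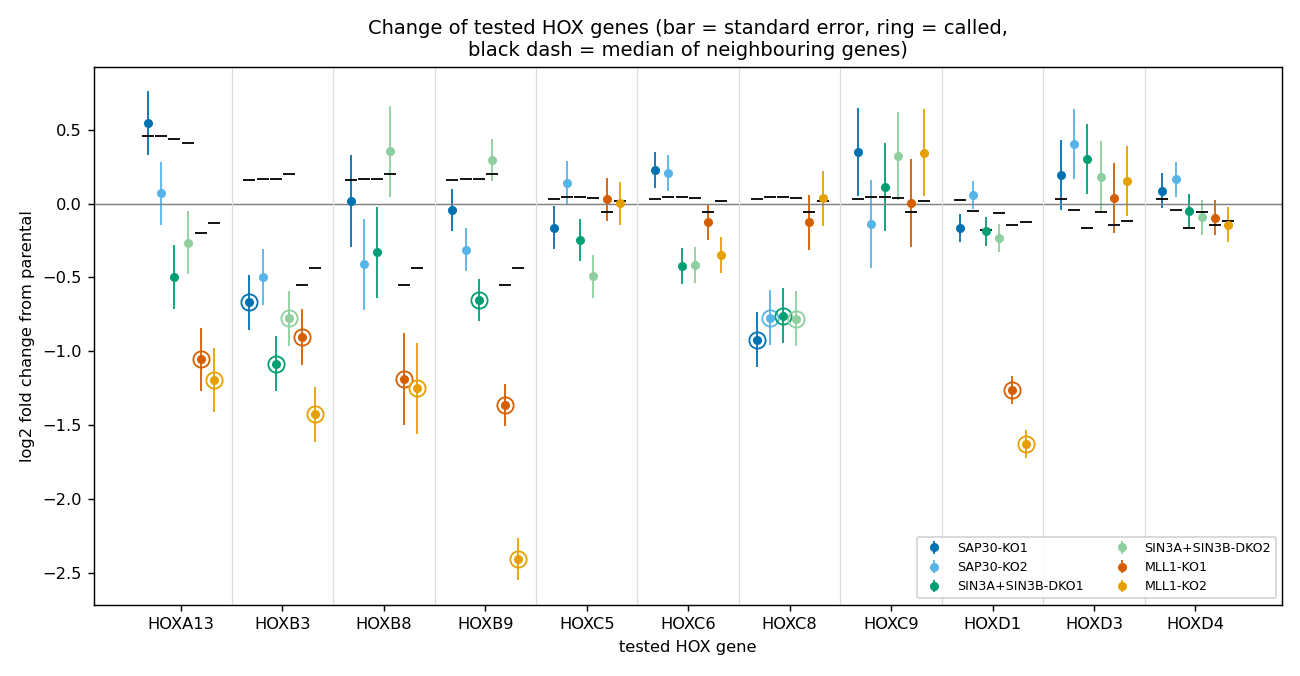
Log2 fold change from parental, on log2(TPM + 0.5), of the 11 tested HOX genes in the 6 edited lines (points, bars give the standard error, rings mark calls, black dashes give the median of the 51 neighbouring genes). HOXB9 reaches -2.41 in MLL1-KO2, and HOXC8 is ringed in the 4 SAP30-KO and SIN3A+SIN3B-DKO lines and in neither MLL1-KO line.

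In the SAP30-KO lines HOXC8 was lower in both lines and HOXB3 in 1 line. In SAP30-KO1, 2 of the 11 tested genes were called lower, where 7.86% of all tested genes were lower and 7.8% higher, and without HOXB3 the count was 1. No HOX gene was called higher by limma or voom, and at an unadjusted p below 0.05 HOXA13 was higher in SAP30-KO1 (log2 change 0.55 ± 0.215, adjusted p = 0.054 by limma). HOXA13 passed the filter only through the SAP30-KO libraries. The local running median at HOXA13 was 0.457 in SAP30-KO1, and its part in the HOXA13 value was not tested. In SAP30-KO2, 1 was called lower, against 8.12% lower and 7.44% higher over all tested genes. The median log2 change of the 11 genes was 0.02 in SAP30-KO1 and 0.06 in SAP30-KO2. HOXB9 and HOXD1 were called in neither line: the 95% confidence interval of the log2 change was -0.36 to 0.27 and -0.63 to 0.00 for HOXB9, and -0.38 to 0.04 and -0.15 to 0.27 for HOXD1. MLL RNA was lower in these lines too, at 31.6 and 23.0 TPM in SAP30-KO1 and 35.4 and 31.3 TPM in SAP30-KO2 (log2 changes -0.95 ± 0.146 and -0.65 ± 0.146, adjusted p = 0.00027 and 0.0033 by limma).

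The lines labelled SIN3A+SIN3B-DKO gave a similar short list. In SIN3A+SIN3B-DKO1, 3 genes were called lower, HOXB3, HOXB9 and HOXC8, where 8.66% of all tested genes were lower and 7.76% higher. In SIN3A+SIN3B-DKO2, 2 were called lower, HOXB3 and HOXC8, against 7.56% lower and 6% higher over all tested genes. Without HOXB3 these counts were 2 and 1. No tested HOX gene was called higher by limma or voom, and 0 were higher at an unadjusted p below 0.05. The median log2 change of the 11 genes was -0.33 and -0.24, beside 0.00 and 0.01 over all tested genes. All 6 edited lines are compared with the same 2 parental libraries, so their results are not independent.

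HOXC8, a mid-cluster gene with a role in thoracic patterning, was at 2.01 and 2.31 TPM in parental cells. It was at 1.09 and 0.733 TPM in SAP30-KO1, 1.15 and 0.960 TPM in SAP30-KO2, 1.23 and 0.917 TPM in SIN3A+SIN3B-DKO1, and 0.935 and 1.17 TPM in SIN3A+SIN3B-DKO2. In the MLL1-KO lines it was at 1.66 and 2.23 TPM and at 2.19 and 2.25 TPM. The 8 libraries of the corepressor lines lay below all 6 others, between which there was overlap. The log2 changes in the order above were -0.92, -0.77, -0.76 and -0.78 (SE 0.186 each, adjusted p = 0.0017, 0.0051, 0.0052 and 0.005 by limma). HOXC8 in the MLL1-KO lines changed by -0.13 and 0.04, with 95% confidence intervals of -0.54 to 0.28 and -0.37 to 0.45. HOXC8 was higher in the MLL1-KO lines than in the SAP30-KO lines (log2 difference 0.80 ± 0.131, adjusted p = 0.00025 by limma) and than in the SIN3A+SIN3B-DKO lines (0.72 ± 0.131, adjusted p = 0.00051). HOXC6 spans HOXC8 and HOXC9 in the annotation and did not share the decrease in the SAP30-KO lines, where its log2 changes were 0.23 ± 0.122 and 0.20 ± 0.122. In SIN3A+SIN3B-DKO1 and SIN3A+SIN3B-DKO2, HOXC6 was lower as well, by -0.42 in each (adjusted p = 0.013 and 0.015 by limma), short of 1.5-fold.

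HOXB3 was below both parental libraries in all 12 edited libraries. It passed the filter only through the parental libraries, which favours a decrease, so its p-values against parental are to be read with that limit. Besides the MLL1-KO values above, it was at 0.461 and 0.784 TPM in SAP30-KO1, 0.728 and 0.776 TPM in SAP30-KO2, 0.293 and 0.375 TPM in SIN3A+SIN3B-DKO1, and 0.492 and 0.570 TPM in SIN3A+SIN3B-DKO2. It was called lower in SAP30-KO1 (log2 change -0.67 ± 0.188, adjusted p = 0.012 by limma), SIN3A+SIN3B-DKO1 (-1.08, adjusted p = 0.00059) and SIN3A+SIN3B-DKO2 (-0.78, adjusted p = 0.0054). In SAP30-KO2 the change of -0.50 had an adjusted p of 0.046 by limma and fell short of 1.5-fold. Without parental replicate 2 or without SAP30-KO1 replicate 1, HOXB3 was no longer called in SAP30-KO1 (-0.61, adjusted p = 0.056, and -0.46, adjusted p = 0.10). HOXB3 overlaps HOXB4, HOXB5 and HOXB6 in the annotation, so reads could have been split among them.

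HOXB9 differed between the 2 lines labelled SIN3A+SIN3B-DKO. It was at 10.5 and 13.3 TPM in SIN3A+SIN3B-DKO1, below parental, and at 26.4 and 20.6 TPM in SIN3A+SIN3B-DKO2, above parental. The decrease in SIN3A+SIN3B-DKO1 was called (log2 change -0.65 ± 0.143, adjusted p = 0.0027 by limma) and the value of 0.29 ± 0.143 in SIN3A+SIN3B-DKO2 was not (adjusted p = 0.11). Without SIN3A+SIN3B-DKO1 replicate 1 the decrease was -0.49 (adjusted p = 0.031) and fell short of 1.5-fold. The difference between the lines was 0.95 ± 0.143 (adjusted p = 0.0022 by limma), and it was the only HOX call between these lines, where 2.23% of all tested genes were called. With these 4 libraries and no others in the fit it had an adjusted p of 0.15. KRT19, an epithelial keratin, also differed between these lines, at 113 and 114 TPM in SIN3A+SIN3B-DKO1 and at 234 and 195 TPM in SIN3A+SIN3B-DKO2, and its part in the HOXB9 result was not tested.

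Between the lines of the other genotypes, no HOX gene was called between SAP30-KO2 and SAP30-KO1, where 0.148% of all tested genes were called; at an unadjusted p below 0.05 there were 2 such genes, HOXA13 and HOXD1, and voom on the recovered reads also called 0. Between MLL1-KO2 and MLL1-KO1, HOXB9 alone was called, where 10.4% of all tested genes were. HOXB3 (-0.52, adjusted p = 0.045 by limma) and HOXD1 (-0.37, adjusted p = 0.0097) were also lower in MLL1-KO2 but by less than 1.5-fold.

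Genotypes were then compared directly, with the 2 lines of each averaged. The error in every comparison of genotypes in this text is the spread between libraries of a line. Differences between the 2 lines of a genotype are not part of it. For HOXB9 the SIN3A+SIN3B-DKO average joins lines at 11.9 and 23.5 TPM. Between the MLL1-KO and SAP30-KO lines 5 HOX genes were called, where 19.8% of all tested genes were called. HOXA13 (log2 difference -1.43), HOXB8 (-1.02), HOXB9 (-1.71) and HOXD1 (-1.39) were lower in the MLL1-KO lines, and HOXC8 was higher. Without HOXA13, which passed the filter only through the SAP30-KO libraries, the count was 4. Between the MLL1-KO and SIN3A+SIN3B-DKO lines the same 5 genes were called, where 19.9% of all tested genes were, with HOXA13 at -0.74, HOXB8 at -1.23, HOXB9 at -1.70 and HOXD1 at -1.23. The local running median was -0.62 and -0.59 at HOXA13 and -0.65 and -0.67 at HOXB8 in these comparisons. With it subtracted, HOXB8 was called in neither (-0.37, adjusted p = 0.15, and -0.56, adjusted p = 0.037 and short of 1.5-fold, by limma), and HOXA13 was no longer called against the SIN3A+SIN3B-DKO lines (-0.16, adjusted p = 0.40). HOXB3 was called in neither comparison (-0.58 and -0.24). Both comparisons share the MLL1-KO libraries.

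Between the SAP30-KO and SIN3A+SIN3B-DKO lines 2 HOX genes were called, HOXA13 and HOXC6, where 7.47% of all tested genes were. HOXA13 passed the filter only through the SAP30-KO libraries, where it is high, and without it the count was 1. HOXA13 was at 1.71, 1.23, 1.05 and 0.777 TPM in the SAP30-KO libraries and at 0.328, 0.589, 0.709 and 0.531 TPM in the SIN3A+SIN3B-DKO libraries, with no overlap (log2 difference 0.69 ± 0.152, adjusted p = 0.0033 by limma). HOXC6, known for its high level in prostate tumours, was at 5.08 to 5.59 TPM in the SAP30-KO libraries and at 2.87 to 3.68 TPM in the SIN3A+SIN3B-DKO libraries (0.64 ± 0.0865, adjusted p = 0.00013). The HOXC6 difference fell to 0.56, short of 1.5-fold, without SIN3A+SIN3B-DKO1 replicate 2. The parental libraries lay between both, at 4.72 and 4.34 TPM. Against parental, HOXC6 in SIN3A+SIN3B-DKO1 and SIN3A+SIN3B-DKO2 gave log2 changes of -0.42 and -0.42 (adjusted p = 0.013 and 0.015 by limma), short of 1.5-fold. HOXC5 in SIN3A+SIN3B-DKO2 gave -0.49 (adjusted p = 0.016), also short of it.

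Among the 13 HOX genes too low to be tested, 8 never had more than 2 reads in a library, of which HOXA11 had none at all. HOXC10, a posterior gene, had 5 and 2 reads in the parental libraries and 0 in all 12 edited libraries. With the 7 parental reads taken as exact and 3 reads put for a count of 0, HOXC10 was 15.6-fold lower over all edited libraries. For a line of 2 libraries the same ratio was 2.29 to 2.74. Counting error of the 7 parental reads is left out, so these ratios are not lower bounds. Without the filter on low values it was called lower in all 6 lines (log2 change -0.97 ± 0.148 each, adjusted p = 0.00042 to 0.00069 by limma), which rests on 7 parental reads. CDH1, the epithelial cadherin, had a like pattern at 1.07 and 1.25 TPM in parental and 0 to 0.282 TPM in the edited libraries, and whether the 2 are linked was not tested.

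HOXB4, known for the expansion of blood stem cells, had 6 and 5 reads in parental libraries, 6 in the SAP30-KO1 pair, 1 in SAP30-KO2, 1 in SIN3A+SIN3B-DKO1, 4 in SIN3A+SIN3B-DKO2, 0 in MLL1-KO1 and 7 in MLL1-KO2. Without the filter it was called lower in SAP30-KO2, SIN3A+SIN3B-DKO1 and MLL1-KO1 (adjusted p = 0.0079, 0.0072 and 0.0035 by limma) and not in the partner lines, although in SIN3A+SIN3B-DKO2 its change of -0.54 (adjusted p = 0.035) fell just short of 1.5-fold and voom called it lower (adjusted p = 0.036). HOXB7, which spans HOXB8 and HOXB9 in the annotation, had 9 reads in the parental pair, 11 to 17 in the SAP30-KO pairs and SIN3A+SIN3B-DKO1, 32 in SIN3A+SIN3B-DKO2, and 2 in each MLL1-KO pair. Without the filter HOXB7 was lower in the MLL1-KO than in the SAP30-KO lines (log2 difference -0.95, adjusted p = 0.0051 by limma) and than in the SIN3A+SIN3B-DKO lines (-1.28, adjusted p = 0.00087), and higher in SIN3A+SIN3B-DKO2 than in parental (0.98, adjusted p = 0.035). With voom on the recovered reads, which was added once the data had been seen, the last of these had an adjusted p of 0.063. HOXC4 had between 4 and 15 reads in each library and was not called in any line.

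Genes around the clusters were measured from a list of antisense and non-coding transcripts and flanking genes. Of 24 cluster transcripts and flanking genes in the table, 13 were tested, and in each MLL1-KO line 2 were called lower and none higher, HOXD-AS1 and SNX10, where 16.3% and 14.9% of all tested genes were lower. SNX10, a sorting nexin gene beyond the HOXA cluster, was at 3.69 and 3.74 TPM in parental cells and at 0.441 to 0.895 TPM in the MLL1-KO libraries (log2 changes -1.68 ± 0.144 and -2.15 ± 0.144, adjusted p = 2.1e-06 and 2.4e-07 by limma). SNX10 was higher in SAP30-KO1 (0.78 ± 0.144, adjusted p = 0.00097). CALCOCO2, an autophagy receptor gene beyond HOXB9, was higher in both SAP30-KO lines (0.64 and 0.60, SE 0.0425, adjusted p = 5.8e-07 and 8.5e-07). In SAP30-KO1, 4 of the 13 were called higher, where 7.8% of all tested genes were, and no flanking gene was called in a SIN3A+SIN3B-DKO line. The levels differed less than these calls. The median log2 change of the 13 was 0.105 and 0.088 in the SAP30-KO lines, and 0.102 and 0.19 in the SIN3A+SIN3B-DKO lines. Mean CALCOCO2 was 74.7 TPM in parental, 116.5 and 113.6 TPM in the former, and 106.3 and 100.6 TPM in the latter. The local running median at HOXA13 was 0.457 and 0.459, and 0.435 and 0.411. HOTAIR, the non-coding RNA of the HOXC cluster, did not exceed 0.108 TPM in any library.

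**Figure D4:**
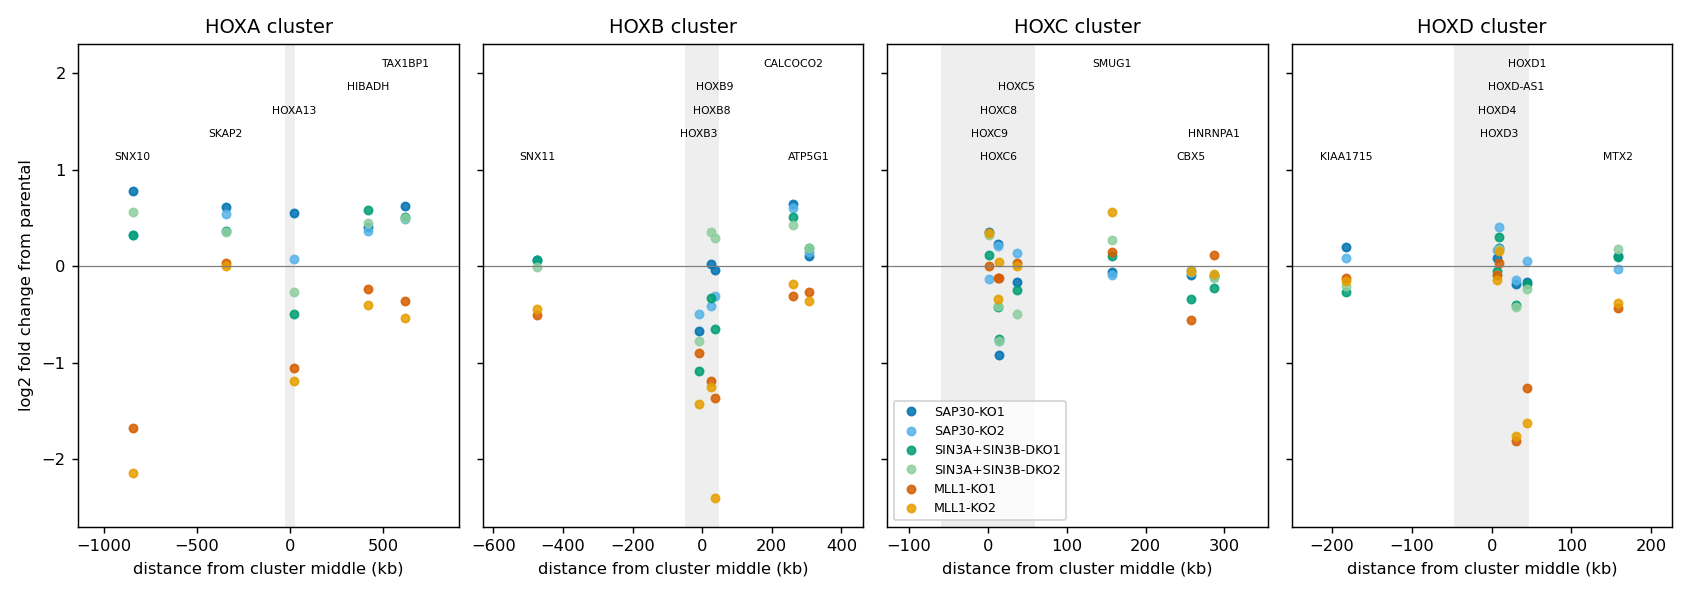
Log2 fold change from parental of the tested HOX genes, cluster transcripts and flanking genes, in 4 panels by cluster, against the distance of the gene's middle from the middle of the HOX cluster in kb (grey band: the cluster; colours: the 6 edited lines). HOXD1 and HOXD-AS1 lie near -1.3 to -1.8 in the MLL1-KO lines while HOXD3 and HOXD4 stay near 0, and SNX10 stands below SKAP2, the tested gene between it and HOXA13, in the MLL1-KO lines.

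Of the HOX cofactors, the TALE homeodomain proteins that bind DNA with HOX proteins, 8 were tested. PBX3 rose in both MLL1-KO lines, from 19.0 and 19.0 TPM to 28.7 and 31.2 TPM and to 40.0 and 40.4 TPM (0.64 and 1.06, SE 0.0734, adjusted p = 2e-05 and 3.1e-07 by limma). PKNOX2 rose in both SAP30-KO lines, from 0.261 and 0.268 TPM to between 0.830 and 1.34 TPM (1.03 and 1.04, SE 0.213, adjusted p = 0.002 and 0.0019), and in SIN3A+SIN3B-DKO1. PKNOX2 reached 1 TPM only in SAP30-KO libraries and so passed the filter through the group in which it was highest. PBX2, PBX4, MEIS1, MEIS2 and PKNOX1 were called in no line.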

How the data were processed

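RNA-seq of the 14 MDA-MB-231 libraries was made by the authors from RNeasy-purified, DNase-treated RNA with the KAPA mRNA Hyper Prep kit, and sequenced on an Illumina instrument. The submitters' processing notes name FastQC 0.11.2, TopHat, featureCounts and hg19; the annotation and the strand setting are not given in the sources used here. The deposited values are named RPKM, but each library sums to the same round total, as TPM do, so they were treated as TPM values as deposited by the authors, and the test planned for RPKM was kept for TPM. TPM is relative to all RNA of a library.

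Low values stepped by whole reads, which gave whole reads within 0.02 for 18519 of 18519 genes above 0 (100.0%) and 18415036 to 23162682 reads per library. Intervals on reads cover counting error only, at 95% confidence. Genes with at least 1 TPM in 2 of 14 libraries (13540) were tested with limma 3.58.1 (R 4.3.3) on log2(TPM + 0.5), with trend, 7 condition means in 1 fit and 12 contrasts, Benjamini-Hochberg adjustment, and calls at an adjusted p below 0.05 and 1.5-fold. limma's residual and prior degrees of freedom were 7 and 3.6. voom on the recovered reads was an alternative; it called between 30 and 3569 genes per comparison, where limma called between 20 and 3408. The scripts were tested on simulated data. Other alternatives were pseudocounts of 0.1 and 1, no filter, quantile and median-ratio scaling, other fold minimums, fits of the compared libraries alone, a replicate block, leaving out each library, and subtracting a running median over 51 neighbouring genes (GENCODE 44 on GRCh37, which placed 95.4% of tested genes).

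The HOX genes and the lists of cofactors, cluster transcripts and neighbours, MLL1 partners, Polycomb genes and cell markers were chosen with earlier results of these data known. Levels in every library are given for HOX genes called in at least 1 of the 6 comparisons with parental and for the 3 with the highest parental mean; others are given by range and count, and list genes are named when called in both lines of a genotype. SNX10 in SAP30-KO1, HOTAIR, HOXC10, HOXB4, HOXB7, CDH1, KRT19, HOXC5, HOXC6, and SUZ12, EED and CBX7 were named after their values were seen. So were GATA3, PCGF2, and MEN1 in the SAP30-KO lines. Replicate libraries differed by more than sampling noise in each condition (chi-square per degree of freedom 1.47 to 8), and none was merged. The highest value, 8, was that of SIN3A+SIN3B-DKO2, while the fit used a spread shared by all conditions. Figures were drawn with matplotlib 3.10.9. The result of 1 listed cofactor is not reported here.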

Additional observations from a re-analysis of the deposited data

Results flagged for a closer look

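HOXB9 differed between the 2 lines of the same genotype in 2 of the 3 genotypes, tested as the difference itself in the fit over all libraries. It was higher in SIN3A+SIN3B-DKO2 than in SIN3A+SIN3B-DKO1, by 0.95 on log2(TPM + 0.5) (adjusted p = 0.0022 by limma), with both SIN3A+SIN3B-DKO2 libraries above both SIN3A+SIN3B-DKO1 libraries. With only the libraries of these 2 lines in the fit, the adjusted p was 0.15 by limma and the call was lost. HOXB9 was lower in MLL1-KO2 than in MLL1-KO1, by -1.04 (adjusted p = 0.00019), with both MLL1-KO2 libraries below both MLL1-KO1 libraries. Between SAP30-KO2 and SAP30-KO1 the difference was -0.27 ± 0.143 (adjusted p = 0.45).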

How the results depend on the processing

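Across 560 recomputed values of called HOX genes, 523 stayed called, 37 did not and 0 changed sign; of 300 recomputed counts of called HOX genes, 266 stayed within 1.5 times. No filter gave 3 lower in SAP30-KO2, 5 lower in SIN3A+SIN3B-DKO1 and 1 higher in SIN3A+SIN3B-DKO2. No fold minimum gave 2 lower in SAP30-KO2, 4 lower in SIN3A+SIN3B-DKO2, 3 between the MLL1-KO lines and 8 between MLL1-KO and SAP30-KO. A fold minimum of 2 gave 0 lower in SAP30-KO1, SAP30-KO2 and SIN3A+SIN3B-DKO2, 1 lower in SIN3A+SIN3B-DKO1, 0 between the SIN3A+SIN3B-DKO lines and between SAP30-KO and SIN3A+SIN3B-DKO, and 3 between MLL1-KO and SIN3A+SIN3B-DKO. A pseudocount of 1 gave 1 lower in SAP30-KO1 and in SIN3A+SIN3B-DKO2, 3 between MLL1-KO and SIN3A+SIN3B-DKO and 0 between SAP30-KO and SIN3A+SIN3B-DKO; a pseudocount of 0.1 gave 2 between the MLL1-KO lines. Quantile normalization gave 1 higher in SAP30-KO1, 2 lower in MLL1-KO1 and 1 between SAP30-KO and SIN3A+SIN3B-DKO. With the running median subtracted there were 2 lower in SAP30-KO2, 3 lower in MLL1-KO1, 2 between the MLL1-KO lines and 3 between MLL1-KO and SIN3A+SIN3B-DKO. voom gave 2 lower in SAP30-KO2 and 2 between the MLL1-KO lines. With only the compared libraries in the fit there were 1 lower in SAP30-KO1 and 0 between the SIN3A+SIN3B-DKO lines. Leaving out 1 library gave 1 to 2 lower and 0 to 1 higher in SAP30-KO1, and 1 to 2 between SAP30-KO and SIN3A+SIN3B-DKO. The cause of these shifts was not tested beyond the construction of each setting.

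Replicate numbers did not pair the samples (correlation of deviations 0.01 on average over 21 pairs of conditions, -0.07 to 0.08), and the fit with a replicate block moved no count, with 2 lower in SAP30-KO1, 1 in SAP30-KO2, 3 in SIN3A+SIN3B-DKO1, 2 in SIN3A+SIN3B-DKO2, 5 each in MLL1-KO1 and MLL1-KO2. With 2 libraries per condition, and under 25 reads a library for HOXB8, small changes of low HOX genes were not detectable at this depth.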

Other observations

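Of 15 MLL1 partners and relatives tested, MLL was the only one called against parental, lower in both SAP30-KO and both MLL1-KO lines, and none was called in the SIN3A+SIN3B-DKO lines by limma. Over all tested genes 7.86% and 8.12% were lower in the SAP30-KO lines, and 16.3% and 14.9% in the MLL1-KO lines. In the SIN3A+SIN3B-DKO lines 8.66% and 7.56% were lower. MEN1, which tethers MLL1 to chromatin with PSIP1, lay at 53.2 and 54.5 TPM in parental. It was at 37.1 to 39.9 TPM in the SAP30-KO libraries and at 59.8 to 69.4 TPM in the other edited libraries. In SAP30-KO1 its log2 change was -0.52 ± 0.0523 (adjusted p = 1.2e-05 by limma), short of 1.5-fold. WDR5, a core subunit, lay at 103 and 108 TPM in parental and at 91.5 to 116 TPM in edited libraries.

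Of 13 Polycomb genes, whose products oppose MLL1 at HOX genes, SUZ12 was lower in SIN3A+SIN3B-DKO1 (log2 change -0.67 ± 0.0831, adjusted p = 5.5e-05 by limma) and in MLL1-KO2 (-0.96 ± 0.0831, adjusted p = 1.9e-06), and CBX7 was higher in MLL1-KO2 (0.86 ± 0.135, adjusted p = 2e-04). EED was lower in MLL1-KO1 (-0.69 ± 0.0664, adjusted p = 5.4e-06). None was called in the SAP30-KO lines or in SIN3A+SIN3B-DKO2. SUZ12 and PCGF2 were nonetheless below both parental libraries in all 12 edited libraries. In SAP30-KO1 the SUZ12 change was -0.49 ± 0.0831 (adjusted p = 0.00051 by limma), short of 1.5-fold. Over all tested genes 7.56% to 8.66% were lower in the SAP30-KO and SIN3A+SIN3B-DKO lines. In MLL1-KO1 and MLL1-KO2, 16.3% and 14.9% were lower, and 6.89% and 10.2% higher. EZH2, the methyltransferase, was at 109 and 110 TPM in parental and at 111 to 128 TPM in the edited libraries and was called in no line.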
